A study of Mus musculus with 10 samples.

Results

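Fibrillins, latent TGF-beta binding proteins (LTBPs), elastin and the proteins that sit on elastic microfibrils were followed in 10 mouse pancreatic cancer cell lines. The 10 genes were taken from a fixed list (Fbn1, Fbn2, Ltbp1, Ltbp2, Ltbp3, Ltbp4, Mfap2, Mfap5, Eln and Fbln5), and all 10 were found among the 49568 genes of the deposited table. Messenger RNA had been sequenced once per line, from 5 lines labelled KPC (A1081, A1620, A1625, A2031 and A2032) and 5 labelled KPCAf/f (A1693, A1809, A1925, A2441 and A3992). The lines were grown in culture, and the labels name no treatment. In this field KPC stands for a mouse model whose pancreatic tumours arise from alleles switched on by a pancreatic Cre recombinase, a background that both groups share. The labels spell out neither name. Here the A is taken to be Arid1a, a subunit gene of a chromatin remodelling complex that the series title names, with f/f for floxed alleles. The labels name no Cre driver and no animal age, and they do not say whether each line is a clone or came from its own mouse, so that p-values measure the spread between these lines.

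Fibrillins are large glycoproteins that assemble outside the cell into microfibrils, the scaffold on which elastin is laid down to form elastic fibres. LTBPs are their close relatives. They hold TGF-beta in its latent form and tether it to microfibrils and fibronectin, while Ltbp2 is the family member known for binding microfibrils without holding latent TGF-beta. Elastic fibres are made mainly by fibroblasts and smooth muscle cells, and fibrillin and LTBP expression is a known feature of mesenchymal cells and of the stroma of pancreatic tumours.

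Values are counts normalized for library size, in which 1 read is worth about 1 normalized count (0.818 to 1.32 over the lines), and libraries held 15124888 to 20419830 reads assigned to genes. Each log2 fold change sets KPCAf/f against KPC after adding 1 to the normalized counts, so the change of genes near 0 is understated. A gene was called when its limma p-value, adjusted by Benjamini-Hochberg over the 13089 genes with at least 10 normalized counts in at least 5 of the 10 lines, was under 0.05. Arid1a itself lay between 820 and 3109 normalized counts in KPC and between 1253 and 1785 in KPCAf/f (log2 fold change -0.42, SE 0.32, limma adjusted p = 0.563). This is a count over the whole gene, and loss of the floxed exons was not tested. Without A1620, the line at 820, the Arid1a value was -0.72 (limma adjusted p = 0.0857), and without A1625, the line at 3109, it was -0.24 (0.743). In KPC line A1620 longer transcripts had lower levels than in the average line, with a slope of -0.65 (log2 per doubling of length) against -0.02 to 0.15 in the other 9. Pdx1 and Cdh1 had 2.70 and 10.8 normalized counts in KPCAf/f line A1693, against 594 to 1679 and 3143 to 22853 in the other 9, and these defining markers of the labelled pancreatic epithelial cells are thus near 0 in it. Y-linked reads (Uty, Kdm5d, Ddx3y and Eif2s3y, 4 genes) came to 1148 to 3415 in each KPC line and 0 to 3 in each KPCAf/f line, and this difference and the genotype cannot be told apart.

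The fibrillin Fbn1, the LTBP Ltbp2, the fibulin Fbln5 and the microfibril glycoprotein Mfap5 rose in the KPCAf/f lines, while Ltbp3, the member with the highest mean level per transcript length in both genotypes, Ltbp1 and Ltbp4 did not pass the test. In all, 4 of the 7 members that could be tested were called higher and 0 lower by limma, where 1.36% of all 13089 tested genes were called higher and 0.39% lower. The count is not read as a result about the list, because Mfap5 and Fbln5 were under 10 in every KPC line and entered the test only through the KPCAf/f lines. Of the 66 tested genes of that kind, 87.9% were called higher. Ltbp1, Ltbp2, Ltbp3 and Ltbp4 had at least 10 in every line, and of the 10698 tested genes of that kind 0.458% were called higher. Fbn1 reached 10 in 1 KPC line, A1620, and so it too needed KPCAf/f lines to pass the filter. Fbn1, Ltbp2, Mfap5 and Fbln5 were each higher in every KPCAf/f line than in any KPC line, as were 2.84% of all tested genes. For Mfap5 and Fbln5 the filter fixed this outcome, which holds for 100% of the 66 genes of their kind. No tested member was lower in every KPCAf/f line, as 1.69% of tested genes were. Unadjusted p was under 0.05 for 5 of the 7, the fifth being Ltbp1, and for 14.6% of all tested genes in either direction. Fbn2, Mfap2 and Eln had too few reads to be tested with the rest.

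**Figure D1:**
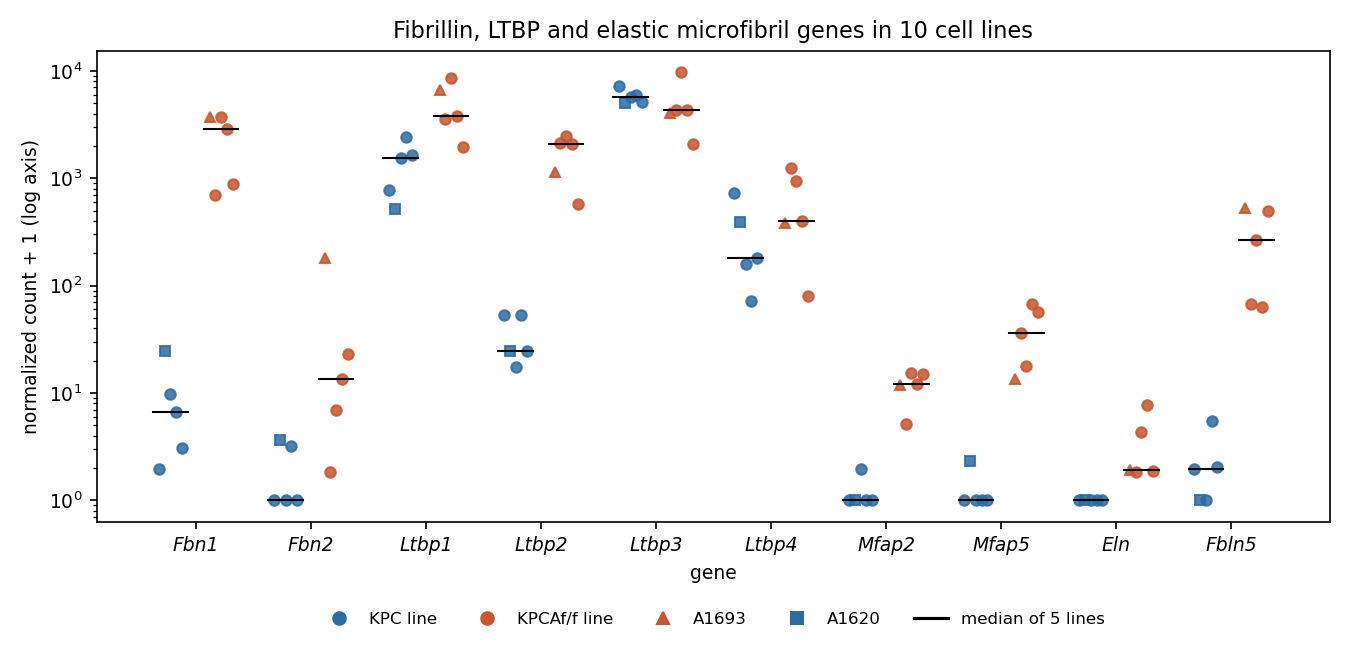
Normalized count + 1 on a log axis for each of the 10 genes, with 1 point per line, KPC lines in blue and KPCAf/f lines in orange, A1620 as a square, A1693 as a triangle and the median of 5 lines as a bar. Fbn1 runs from 0.947 to 23.8 normalized counts in KPC and from 698 to 3740 in KPCAf/f, while the ranges of Ltbp3 overlap.

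The RefSeq promoter table (GRCm38.p6) held 7 of the 10 genes, and Fbn2, Mfap5 and Eln are not in it. The 250 bases before the outermost start in that table are shown for 3 members that rose, Fbn1, Ltbp2 and Fbln5, and for Ltbp3, an abundant member that was not called. The Fbn1 and Ltbp2 starts in that table lie inside the GENCODE M21 spans of these genes. Capitals mark matches, on either strand, to 8 short motifs: a TATA box (TATAAA), a SMAD-binding repeat of TGF-beta response elements named the CAGA box (CAGACA), a palindromic SMAD site (GTCTAGAC), a GC box of Sp1-like factors (GGGCGG), an AP-1 site (TGANTCA), a TEAD site (GGAATG), an E-box of Snail and Zeb factors (CAGGTG) and a cyclic AMP response element (TGACGTCA).
Fbn1 (chr2:125506439-125506688, minus strand): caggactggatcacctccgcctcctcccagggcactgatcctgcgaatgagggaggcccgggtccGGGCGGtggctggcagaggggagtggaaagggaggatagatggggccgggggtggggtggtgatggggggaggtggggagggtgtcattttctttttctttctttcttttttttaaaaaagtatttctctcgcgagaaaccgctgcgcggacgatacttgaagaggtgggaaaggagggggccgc
Ltbp2 (chr12:84876492-84876741, minus strand): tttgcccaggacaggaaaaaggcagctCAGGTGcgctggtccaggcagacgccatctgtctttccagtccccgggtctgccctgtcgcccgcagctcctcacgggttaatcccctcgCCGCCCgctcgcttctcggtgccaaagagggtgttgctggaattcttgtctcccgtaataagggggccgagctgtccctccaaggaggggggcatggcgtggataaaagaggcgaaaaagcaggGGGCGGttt
Fbln5 (chr12:101819120-101819369, minus strand): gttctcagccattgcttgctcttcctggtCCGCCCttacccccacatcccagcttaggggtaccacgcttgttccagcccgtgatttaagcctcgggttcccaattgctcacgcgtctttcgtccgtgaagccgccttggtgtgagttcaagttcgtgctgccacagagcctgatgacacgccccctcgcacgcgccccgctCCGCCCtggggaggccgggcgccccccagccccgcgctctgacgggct
Ltbp3 (chr19:5740650-5740899, plus strand): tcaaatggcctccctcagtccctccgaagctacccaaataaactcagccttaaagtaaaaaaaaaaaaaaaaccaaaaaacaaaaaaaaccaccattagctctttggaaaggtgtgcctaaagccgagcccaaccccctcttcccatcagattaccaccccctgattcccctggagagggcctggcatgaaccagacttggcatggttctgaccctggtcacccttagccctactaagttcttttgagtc
Counted back from the start, a GC box began at -185 in Fbn1, at -133 and -9 in Ltbp2 and at -221 and -48 in Fbln5, and Ltbp2 also had the E-box at -223. GC boxes were present in 32.7% and the E-box in 17.2% of all 32851 windows of this length, so a GC box in these 3 windows is a common feature. None of the 8 motifs was matched in the Ltbp3 window. The windows of Fbn1, Ltbp2 and Fbln5 held 13, 16 and 21 CpG dinucleotides and the Ltbp3 window held 2, against a median of 6 over all windows. Other members that were not called also had windows above that median. The outermost start of Ltbp1 had 12, and the starts of Ltbp4 had 15, 28 and 29 with at least 3 GC boxes each. The other start of Ltbp1 had 7, close to the median. The other start of Fbln5 had 6, with no GC box and a CAGA box at -15, a motif present in 17.1% of all windows. These letter matches are descriptions of the sequence and show no binding.

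Fbn1, which encodes the main structural glycoprotein of microfibrils, was close to absent in KPC. It spans 125300594 to 125507993 of chromosome 2 (minus strand, GRCm38). In the KPC lines Fbn1 had 0.947 (A1081), 23.8 (A1620), 8.81 (A1625), 5.59 (A2031) and 2.06 (A2032) normalized counts. In the KPCAf/f lines it had 3693 (A1693), 698 (A1809), 3740 (A1925), 2897 (A2441) and 892 (A3992). Every KPCAf/f line was above every KPC line, and the KPCAf/f lines formed a high set of 3 and a lower pair, A1809 and A3992. The means were 8.25 ± 9.25 (SD, n = 5) and 2384 ± 1490 (SD, n = 5), a ratio of 289, with a log2 fold change of 8.25 (SE 0.75, limma adjusted p = 0.000272). This was the 9th largest increase among the 13089 tested genes, a set that Fbn1 entered with 1 KPC line at 10 or more. A1620, the line with the steep length trend, had the most Fbn1 of the KPC lines, and the longest Fbn1 transcript has 11971 bases. Exons of Gm9913 on the opposite strand cover 2442 bases (20.1%) of the Fbn1 exons, and Gm9913 had at most 5.06 normalized counts in any line. Without A1620 the KPC mean was 4.35 ± 3.57 (n = 4, limma adjusted p = 0.000307), and without A1693 the KPCAf/f mean was 2057 ± 1499 (n = 4, limma adjusted p = 0.000827).

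Fbn2, the fibrillin best known from developing tissues, stayed low in nearly every line. It spans 58008623 to 58210487 of chromosome 18 (GRCm38). It had 0, 2.65, 0, 2.24 and 0 normalized counts in the KPC lines A1081, A1620, A1625, A2031 and A2032. A1693 had 181, and the other KPCAf/f lines had 0.818 (A1809), 5.90 (A1925), 12.4 (A2441) and 22.03 (A3992). A single line, A1693, therefore carried most of the Fbn2 reads, and A1809 lay within the KPC range. The KPCAf/f mean was 44.4 ± 76.7 (SD, n = 5) with A1693 and 10.3 ± 9.15 (n = 4) without it, against 0.977 ± 1.35 in KPC (0.559 ± 1.12 without A1620). An exact permutation test, two-sided and over every way to split the lines, gave an unadjusted p of 0.0238 (0.0397 without A1693), while limma without the filter on low values gave an adjusted p of 0.213. Per kilobase of transcript, Fbn1 made up 94.96% to 99.9% of the fibrillin level in the KPCAf/f lines, with the lowest share in A1693.

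Ltbp1, which binds latent TGF-beta and anchors it to fibronectin and microfibrils, was present in every line. The gene occupies 75005568 to 75392512 of chromosome 17 (GRCm38). The KPC lines had 772 (A1081), 514 (A1620), 1541 (A1625), 2426 (A2031) and 1636 (A2032) normalized counts of Ltbp1. The KPCAf/f lines had 6595 (A1693), 3589 (A1809), 8483 (A1925), 3810 (A2441) and 1962 (A3992). Of the 5 KPCAf/f lines, 4 lay above every KPC line, and A3992 lay below A2031. The means were 1378 ± 759 and 4888 ± 2610 (SD, n = 5 each), a ratio of 3.55, and the log2 fold change of 1.85 (SE 0.48) did not pass over all genes (limma adjusted p = 0.0930, edgeR adjusted p = 0.102, limma-voom adjusted p = 0.116). DESeq2 on the recovered reads called it (adjusted p = 0.00563), where DESeq2 called 4.06% of genes higher. With 1 line left out the log2 fold change ran from 1.55 without A1620 (limma adjusted p = 0.155) to 2.14 without A3992 (0.0529), the largest adjusted p was 0.196 without A1925, and without A1620 and A1693 together it was 1.40 (0.227).

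Ltbp2 rose from a low but measurable level. The gene occupies 84783212 to 84876532 of chromosome 12 (minus strand, GRCm38). In KPC it had 52.1 (A1081), 23.8 (A1620), 16.6 (A1625), 52.5 (A2031) and 23.7 (A2032) normalized counts. In KPCAf/f it had 1141 (A1693), 2127 (A1809), 2492 (A1925), 2072 (A2441) and 574 (A3992). The groups did not overlap, and the lowest KPCAf/f line, A3992, was more than 10 times the highest KPC line. The mean went from 33.8 ± 17.2 to 1681 ± 795 (SD, n = 5 each), a ratio of 49.8, with a log2 fold change of 5.56 (SE 0.48, limma adjusted p = 0.000175). Among the 10698 genes with at least 10 normalized counts in every line, this was the 4th largest increase. Leaving out A1693 gave a log2 fold change of 5.66 (limma adjusted p = 0.000536) and leaving out A1620 gave 5.48 (0.00105). The antisense RNA D030025P21Rik overlaps 764 bases (9.335%) of the Ltbp2 exons on the opposite strand, and it ran from 0 to 2.24 normalized counts in KPC and from 12.3 to 145 in KPCAf/f. The library kit kept strand, per the labels, but the strand setting of the counting is not given in the sources used here, and the part of shared reads in either value was not tested.

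Ltbp3, which binds latent TGF-beta and is known for its role in bone and tooth formation, had the highest level of the family in every KPC line. On chromosome 19 it spans 5740904 to 5758532 (GRCm38). KPC lines had 7263 (A1081), 4978 (A1620), 5649 (A1625), 5904 (A2031) and 5072 (A2032) normalized counts of Ltbp3. KPCAf/f lines had 4065 (A1693), 4357 (A1809), 9717 (A1925), 4356 (A2441) and 2065 (A3992). The KPC lines lay close together, with a coefficient of variation of 15.9%, whereas that of the KPCAf/f lines was 58.0%, with A1925 above every KPC line and the other 4 below every KPC line. The means were 5773 ± 919 and 4912 ± 2851 (SD, n = 5 each), and the log2 fold change of -0.40 (SE 0.34) was not called (limma adjusted p = 0.597). Without A1925 the KPCAf/f mean was 3711 ± 1106 (n = 4) and the log2 fold change -0.69 (limma adjusted p = 0.315), and without A3992 the log2 fold change was -0.13 (0.850).

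Ltbp4, the LTBP known for elastic fibre assembly in the lung, varied the most of the 4 within both genotypes. On chromosome 7 it spans 27305136 to 27337692 (minus strand, GRCm38). It had 722 (A1081), 391 (A1620), 159 (A1625), 70.4 (A2031) and 181 (A2032) normalized counts in KPC. It had 379 (A1693), 1242 (A1809), 945 (A1925), 396 (A2441) and 78.4 (A3992) in KPCAf/f. The ranges overlapped, with A1809 and A1925 above the highest KPC line and the highest line 10.3 times the lowest in KPC and 15.8 times in KPCAf/f. The log2 fold change of 0.91 (SE 0.79) was not called (limma adjusted p = 0.601), with means of 305 ± 261 and 608 ± 473 (SD, n = 5 each), and the KPC mean was 201 ± 136 without A1081 (n = 4).

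Levels of different genes were compared per kilobase of the longest annotated transcript (GENCODE M21). In KPC the order was Ltbp3 (1008 ± 160 normalized counts per kilobase, SD, n = 5), Ltbp1 (207 ± 114), Ltbp4 (56.6 ± 48.5) and Ltbp2 (4.99 ± 2.54), with Fbn1 next at 0.689 ± 0.773. In KPCAf/f it was Ltbp3 (857 ± 498), Ltbp1 (733 ± 391), Ltbp2 (248 ± 118), Fbn1 (199 ± 125), Ltbp4 (113 ± 87.7), Fbln5 (48.9 ± 38.8), Mfap5 (15.0 ± 9.43), Mfap2 (10.2 ± 3.86), Fbn2 (4.02 ± 6.95) and Eln (0.660 ± 0.672). The ranges of Ltbp3 and Ltbp1 were separate in KPC and overlapped in KPCAf/f, where Ltbp3 was above Ltbp1 in 4 of 5 lines and A1693 was the exception. No pair of neighbours in the KPCAf/f order had separate ranges, and with exon length summed over all transcripts Ltbp2 was above Fbn1 in 2 of the 5 lines in place of 4. Elastin itself was at the bottom of the order in both genotypes.

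The mix of LTBP transcripts differed between the genotypes although the Ltbp3 level did not pass its test. Ltbp3 made up 72.8% to 85.02% of the summed LTBP level per kilobase in the KPC lines (mean 79.1% ± 5.03, SD, n = 5) and 36.6% to 48.3% in the KPCAf/f lines (43.7% ± 4.86, n = 5). Ltbp1 made up 7.54% to 25.7% in KPC and 29.2% to 51.0% in KPCAf/f. Ltbp2 made up 0.197% to 0.548% in KPC and 8.70% to 17.9% in KPCAf/f, while the Ltbp4 share overlapped, at 0.924% to 8.79% and 1.93% to 12.5%. Thus the shares of Ltbp1, Ltbp2 and Ltbp3 each fell into separate ranges, also with exon length summed over all transcripts (Ltbp3 72.7% to 83.1% against 35.5% to 46.3%). The ratio of Ltbp1 to Ltbp3 per kilobase was 0.0887 to 0.353 in KPC and 0.707 to 1.39 in KPCAf/f, and up to 0.816 without A1693. The summed LTBP level itself overlapped, at 1276 ± 199 in KPC and 1951 ± 992 in KPCAf/f (SD, n = 5 each). The shares add up to the whole in each line, so a larger share of 1 gene lowers the others and the separate ranges are not independent results. The normalized counts of Ltbp1 and of Ltbp3 overlapped between the genotypes. These shares were computed after the single genes had been seen and carry no test.

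Mfap5, a small glycoprotein that binds fibrillin and is a known product of cancer-associated fibroblasts, rose from near 0. On chromosome 6 it spans 122505845 to 122529290 (GRCm38). It had 1 read over the 5 KPC libraries, in A1620. The KPCAf/f lines had 12.6 (A1693), 35.2 (A1809), 16.9 (A1925), 66.3 (A2441) and 55.5 (A3992) normalized counts. All were above the KPC lines, which the filter fixed for a tested gene under 10 in every KPC line. From the pooled reads the ratio was 169, with an exact 95% counting interval of 29.9 to 6695 that covers counting error only. The fitted log2 fold change was 4.76 (SE 0.59, limma adjusted p = 0.00170). A1693, which was high for both fibrillins, had the least Mfap5 of the KPCAf/f lines.

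Mfap2, the other microfibril-associated glycoprotein of the group, had 1 read over the KPC lines. On chromosome 4 it spans 141010418 to 141015984 (GRCm38). A1625 had 0.978 normalized counts, which is 1 read, and the other 4 KPC lines had 0. The KPCAf/f lines had 10.8 (A1693), 4.09 (A1809), 14.3 (A1925), 11.2 (A2441) and 14.1 (A3992). Every KPCAf/f line was above every KPC line, and together the KPCAf/f lines had 60 reads. The ratio from pooled reads was 50.9 (exact 95% counting interval 8.78 to 2042). With A1809 under 10 the gene did not reach the filter, and the two-sided exact permutation p was 0.00794, the smallest that 5 lines against 5 can give, which any gene with separate groups reaches. Of the 15623 genes outside the filter that had a read, 1.27% had separate groups in this direction. With no filter on low values Mfap2 passed in limma (adjusted p = 0.00552).

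Eln, which encodes tropoelastin, the soluble monomer of elastic fibres, had 0 reads in all 5 KPC lines and 13 reads over the KPCAf/f lines. The gene occupies 134702593 to 134747323 of chromosome 5 (minus strand, GRCm38). The KPCAf/f values were 0.900 (A1693), 0.818 (A1809), 3.37 (A1925), 6.75 (A2441) and 0.881 (A3992) normalized counts, and 3 of these lines had a single read. A read in every KPCAf/f line was found for 1.48% of the genes outside the filter that had 0 reads in every KPC line. The KPCAf/f mean was 3.93 times a floor of 3 reads over the KPC lines, and 2.30 times without A2441, which held 6 of the 13 reads. These values leave out the counting error of the KPCAf/f reads and are not lower bounds. The two-sided exact permutation p was again 0.00794, and the call was not made by limma without the filter (adjusted p = 0.118). At this depth the lines had almost no elastin transcript in either genotype, and per kilobase of transcript the KPCAf/f means were 0.660 for Eln and 199 for Fbn1.

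Fbln5, a fibulin that links elastin to microfibrils and to integrins at the cell surface, rose and split the KPCAf/f lines. The gene occupies 101746565 to 101819055 of chromosome 12 (minus strand, GRCm38). It had 0.947 (A1081), 0, 0, 4.47 (A2031) and 1.03 (A2032) normalized counts in KPC. It had 532 (A1693), 66.3 (A1809), 267 (A1925), 61.8 (A2441) and 498 (A3992) in KPCAf/f. All KPCAf/f lines were above all KPC lines, with an 8.60-fold span among them. The filter fixed that separation, as Fbln5 was under 10 in every KPC line. The means were 1.29 ± 1.85 and 285 ± 226 (SD, n = 5 each), with a log2 fold change of 6.74 (SE 0.77, limma adjusted p = 0.00114). Without A2031 the KPC mean was 0.494 ± 0.572 (n = 4), and without A1693 the KPCAf/f mean was 223 ± 207 (n = 4, limma adjusted p = 0.00284).

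Fbn1, Ltbp2, Fbln5 and Mfap5 were called in each of the other settings in which they were fitted, 22, 22, 22 and 21, with limma-voom adjusted p of 0.0144, 0.00565, 0.0290 and 0.00728, where limma-voom called 0.581% of genes higher. Fbln5 and Mfap5 were under 10 in every KPC line, and limma called 87.9% of tested genes of that kind higher. Fbn1 too needed KPCAf/f lines to pass the filter. Fits with lines left out kept the filter of all 10 lines, so these settings are not separate support.

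The members did not rank the KPCAf/f lines in 1 order. A1925 had the highest level of 5 members (Fbn1, Ltbp1, Ltbp2, Ltbp3 and Mfap2), and A3992 had the lowest of all 4 LTBPs. A1809 had the lowest level of Fbn1, Fbn2 and Mfap2, yet the most Ltbp4 and the second most Ltbp2. Its Eln value was also the lowest, but A1809, A1693 and A3992 had 1 Eln read each, so library scaling sets their order. A3992, lowest for the LTBPs, was second for Fbln5, Mfap5, Mfap2 and Fbn2. These ranks compare single libraries with no replicate of a line.

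**Figure D2:**
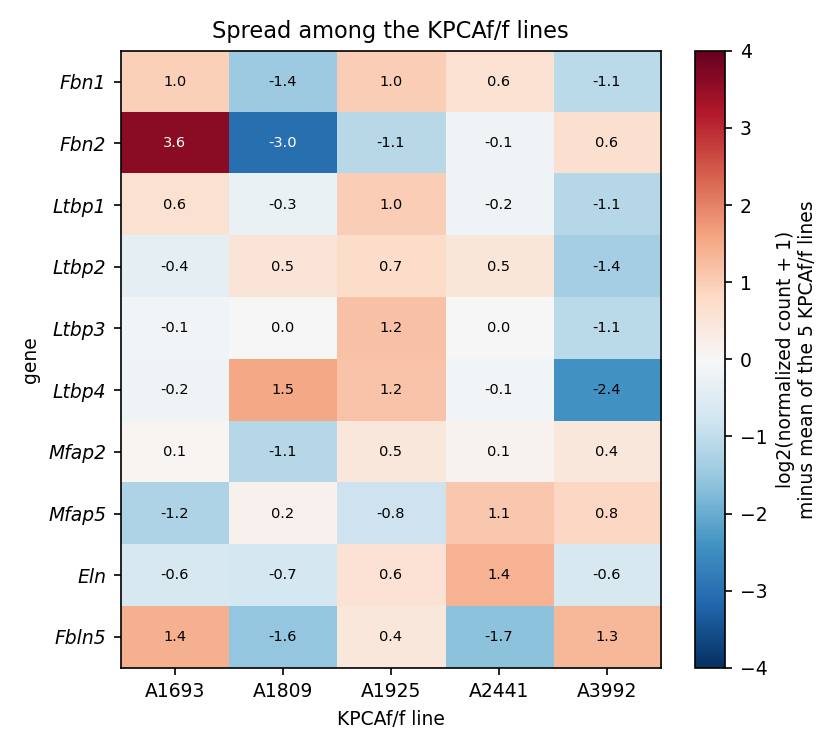
Deviation of each KPCAf/f line from the mean of the 5 KPCAf/f lines in log2(normalized count + 1), for the 10 genes (rows) and 5 lines (columns), red above and blue below the mean. The widest row is Fbn2, from 3.62 in A1693 to -3.02 in A1809, and A3992 is below the mean for all 4 LTBPs and above it for Fbln5, Mfap5 and Mfap2.

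Summed markers of fibroblasts and of smooth muscle and pericytes were higher in every KPCAf/f line, while those of leukocytes, endothelium and mesothelium overlapped. The summed level of 11 fibroblast markers was 62.9 to 173 normalized counts in KPC and 14627 to 88373 in KPCAf/f (up to 25837 without A1693), and 7 of the 11 were higher in every KPCAf/f line than in any KPC line, as were 2.84% of tested genes and 1.27% of those outside the filter with a read. Of the 11, Dcn is also on the list of partner genes. Lum, Fap, Dpt, Pi16, Thy1 and Dcn had at most 182 normalized counts each in any line. The KPCAf/f sums therefore rest mostly on the others, Col1a1, Col1a2, Col3a1, Pdgfra and Pdgfrb. Lum, Fap, Dpt and Pi16 had 0 reads in every KPC line, and Fap, Dpt and Pi16 were also at 0 in at least 1 KPCAf/f line. Smooth muscle and pericyte markers (8 genes) summed to 16.8 to 156 in KPC and 520 to 4780 in KPCAf/f, with 3 of 8 separate. Pancreatic epithelial markers (9 genes) summed to 128334 to 271908 in KPC and to 31406 to 114806 in the KPCAf/f lines other than A1693, which had 6872, and 2 of the 9 were lower in every KPCAf/f line, as were 1.69% of tested genes, while limma called 0 of the 9. Leukocyte and endothelial markers (6 and 5 genes) overlapped between genotypes, at 34.6 to 293 and 7.22 to 668 over all lines, as did mesothelial markers (4 genes), at 13541 to 48890 in KPC and 5173 to 60950 in KPCAf/f. In bulk RNA, fewer cells of a type and less RNA per cell cannot be told apart, and the part of these marker differences in the member values was not tested.

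Other genes of the elastic fibre and latent TGF-beta system were counted from a list of 63. Of 45 tested, 12 rose and 0 fell in KPCAf/f, and 33 did not pass, where 1.36% of all tested genes were called higher. Of the 12, Lox was under 10 in every KPC line and entered the test only through the KPCAf/f lines, like the 66 genes of which 87.9% were called. Loxl1, Lrrc32 and Mmp2 reached 10 in 1 KPC line each, Bgn in 2, and Loxl3 and Emilin2 in 4. These genes too needed KPCAf/f lines to pass the filter, so the count of 12 is not read as a result about the list. Unadjusted p was under 0.05 for 19 in the higher direction and for 0 in the lower, against 1098 and 819 of all 13089 tested genes. Without A1620, and likewise without A2031, 7 were called, and without A1620 and A1693 together 6 were. In these 3 settings 147, 133 and 141 of all tested genes were called higher. The median log2 fold change of the 45 was 0.89, against -0.01 over all tested genes. No set test was run, and the list was written with earlier results of these data known.

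Cross-linking enzymes of collagen and elastin gave 3 of the 12 calls. Lox had at most 9.27 normalized counts in any KPC line and at least 703 in every KPCAf/f line (log2 fold change 9.17, SE 0.65, limma adjusted p = 4.17e-05), Loxl1, the lysyl oxidase known for elastin, had 1.03 to 11.9 and 242 to 1012 (6.41, SE 0.62, limma adjusted p = 0.000412), and Loxl3 had 9.27 to 55.9 and 265 to 2833 (4.80, SE 0.67, limma adjusted p = 0.00358 and limma-voom adjusted p = 0.0660). Without A1693 the KPCAf/f mean of Loxl3 was 494 ± 275 (n = 4), against 962 ± 1073 with it. The groups did not overlap for any of the 3, which the filter fixed for Lox, and Loxl2 and Loxl4 did not pass. These 3 enzymes rose in lines that had almost no Eln transcript.

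Among TGF-beta ligands and the proteins that hold them, Tgfb3 rose from 248 ± 69.4 to 1247 ± 481 normalized counts (SD, n = 5 each, log2 fold change 2.27, limma adjusted p = 0.00304), while Tgfb1 and Tgfb2 did not pass. Lrrc32, which encodes GARP, a membrane anchor for latent TGF-beta that is distinct from the LTBPs, rose from 20.97 ± 42.8 to 896 ± 821 (log2 fold change 7.14, limma adjusted p = 0.00677; edgeR adjusted p = 0.0869). Of the KPC lines A1081 had 97.5 of it and the others 0 to 4.89 (mean 1.83 ± 2.12, n = 4), and without A2441 the KPCAf/f mean was 538 ± 203 (n = 4). Thbs1, a matrix protein known to activate latent TGF-beta, rose from 985 ± 804 to 18084 ± 15577 (adjusted p = 0.0104 in limma and 0.0613 without A1620 and A1693), and its KPCAf/f mean was 11485 ± 5759 without A1809 (n = 4). Neither Tgfbr2, at 2703 ± 590 and 4036 ± 1150, nor Tgfbr3, at 16.7 ± 9.41 and 815 ± 885, passed the test (limma adjusted p = 0.317 and 0.195). Tgfbr3 had 4.09 in A1809 and was called by DESeq2 (adjusted p = 7.45e-07) and by limma without A1809 (adjusted p = 0.00464), and without A1693 its KPCAf/f mean was 455 ± 422 (n = 4).

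Matrix partners and receptors completed the calls. Fn1, the fibronectin on which microfibrils and LTBPs are assembled, rose from 4339 ± 1882 to 37427 ± 19286 normalized counts (log2 fold change 3.03, SE 0.47, limma adjusted p = 0.00731). Its receptor subunit Itga5 rose from 788 ± 172 to 1717 ± 438 (log2 fold change 1.11, limma adjusted p = 0.0328). Vcan, a proteoglycan that binds fibrillin, rose from 119 ± 161 to 2359 ± 2445 (limma adjusted p = 0.0323), with A1625 at 406 within the KPCAf/f range. Without A1625 the KPC mean of Vcan was 47.4 ± 21.4, and without A2441 its KPCAf/f mean was 1392 ± 1318 (n = 4 each). Emilin2 rose from 18.2 ± 8.36 to 529 ± 508 (limma adjusted p = 0.0323). Mmp2, a gelatinase that also degrades fibrillin and elastin, rose from 3.63 ± 5.03 to 455 ± 749 (limma adjusted p = 0.0328). Without A1693 the KPCAf/f mean of Mmp2 was 126 ± 157 (n = 4, limma adjusted p = 0.0374), and without A1625 the KPC mean was 1.60 ± 2.52 (n = 4). Bgn, a small proteoglycan, rose in the fit (log2 fold change 8.42, limma adjusted p = 0.0398), but KPC line A1081 had 8061 normalized counts, within the KPCAf/f range of 4842 to 27175, and the other KPC lines 3.97 to 16.8. On the reads its log2 fold change was 2.94 in edgeR (edgeR adjusted p = 0.488) and 2.94 in DESeq2 (DESeq2 adjusted p = 0.389). The calls of Itga5, Vcan, Emilin2, Mmp2 and Bgn were lost in 9, 10, 11, 11 and 11 of 22 other settings.

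**Figure D3:**
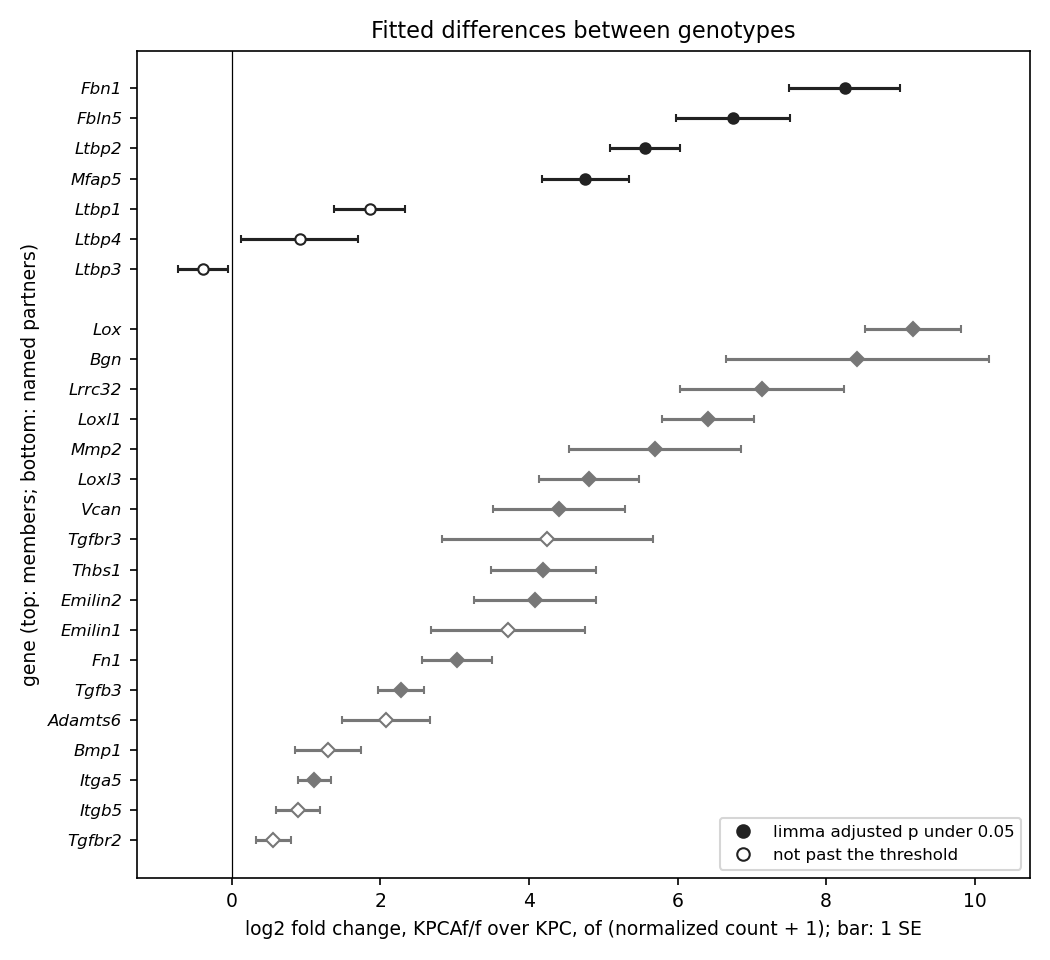
Log2 fold change (KPCAf/f over KPC, of normalized count + 1) with 1 SE for the 7 tested members (circles, top) and 18 named partner genes (diamonds, bottom); filled points are past the limma threshold. Fbn1 at 8.25 leads the members and Lox at 9.17, which was tested only through its KPCAf/f lines, the partners, while Ltbp3 at -0.40 is the only point below 0.

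Partner genes next in order of p did not pass. They were Emilin1 (8.30 ± 1.88 normalized counts in KPC and, with limma adjusted p = 0.120, 508 ± 975 in KPCAf/f, which was 72.8 ± 52.1 without A1693), the microfibril-binding protease Adamts6 (25.5 ± 18.0 and 92.8 ± 30.7, limma adjusted p = 0.129), the integrin subunit Itgb5 (1690 ± 344 and 3332 ± 1425, limma adjusted p = 0.187) and Bmp1, which processes procollagen and lysyl oxidase (944 ± 457 and 2336 ± 1274, limma adjusted p = 0.212), besides Tgfbr3 and Tgfbr2. Fibulins other than Fbln5 gave 0 calls among 4 tested by limma, where 0 had an unadjusted p under 0.05, and 0 by edgeR and DESeq2. Fbln2 had a KPC mean of 15760 ± 7596 and a KPCAf/f mean of 16027 ± 4513 normalized counts, and Efemp1 had 3138 ± 1394 and 6968 ± 3842, both named after their values were seen. Thus among the fibulin genes with enough reads the call was made for Fbln5 alone. Fbln5 was under 10 in every KPC line, and 87.9% of tested genes of that kind were called higher. The 4 others had at least 10 in every line, and 0.458% of tested genes of that kind were. The contrast is therefore not read as a result about the fibulins, and the difference between fibulins was not tested.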

How the data were processed

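Poly(A) RNA of 10 lines was sequenced from a stranded kit, per the labels' protocols. The submitters' processing notes name Trimmomatic 0.36, STAR 2.5.2b, featureCounts from Subread 1.5.0p3, DESeq2 1.14.1 and 2 genome builds, mm9 and GRCm38.p5, without saying where each was used. The deposited signal values are gene counts that the authors divided by a DESeq2 size factor per library, and 100% of them gave whole reads within 0.001 read. Lines were grouped by their labels. Genes with at least 10 normalized counts in at least 5 lines (13089) were fitted with limma 3.58.1 (R 4.3.3, trended prior) on log2(value + 1), KPCAf/f against KPC, with Benjamini-Hochberg adjustment at 0.05. Members outside this filter had a two-sided exact permutation test (scipy 1.17.1). Every member is named, with each called partner gene and the 6 uncalled ones of smallest p. Alternatives were other pseudocounts, filters, scalings and weights, a transcript length correction, lines left out, and 3 count methods (limma-voom, DESeq2 1.42.0, edgeR 4.0.16) applied to the whole reads. On these reads edgeR called 145 genes higher and 27 lower, and DESeq2 521 and 210. GENCODE M21 (GRCm38) gave gene positions and lengths for 95.3% of symbols. The members and lists were chosen with earlier results of these data known.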

Additional observations from a re-analysis of the deposited data

Results flagged for a closer look

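In groups of 5 lines, a line was picked out when its gap to the nearest other line exceeded 0.71 of the group's range. Normally distributed values exceed this in about 1 of 20 groups. The counts were used without a log transform, so that rate need not hold for them and no excess is read from the number of picked lines. Of 52 groups of members and named partner genes, 11 had such a line, and 5 of the 11 were A1693, the line with near-absent Pdx1 and Cdh1.

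Among the members, A1693 had 181 normalized counts of Fbn2 against 0.818 to 22.03 in the other KPCAf/f lines. KPC line A2031 had 4.47 of Fbln5 against 0 to 1.03 in the other KPC lines, a difference of a few reads.

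Among partner genes, A1693 stood above the other KPCAf/f lines for Loxl1 (1012 normalized counts against at most 377), Loxl3 (2833 against at most 887), Mmp2 (1773 against at most 360) and Emilin1 (2251 against at most 132). A2441 stood above them for the GARP gene Lrrc32, at 2330 against at most 800, and A3992 lay under them for Adamts6, at 38.8 against at least 98.6. In KPC, A1081 had 97.5 of Lrrc32 against at most 4.89 and 8061 of Bgn against at most 16.8, and A1625 had 406 of Vcan against at most 70.4.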

How the results depend on the processing

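The limma calls of Fbn1, Ltbp2 and Fbln5 were made in all 22 other settings, and that of Mfap5 in the 21 in which it was fitted. These settings reuse the same lines, and Fbn1, Fbln5 and Mfap5 needed KPCAf/f lines to pass the filter. Leaving out each line in turn moved the log2 fold change of Fbn1 between 7.83 and 8.75, of Ltbp2 between 5.35 and 5.90, of Fbln5 between 6.38 and 7.15 and of Mfap5 between 4.49 and 5.06. The size for genes near 0 depended on the scale: Mfap5 was at 2.28 with a pseudocount of 8 and 6.98 with DESeq2, and Fbln5 at 4.51 and 7.79. Ltbp1 was called by DESeq2 and in no other setting, Mfap2 joined the calls without the filter on low values, and Fbn2 and Eln did not (adjusted p = 0.213 and 0.118 in limma). No member changed sign over these settings, while 9 of the 45 tested partner genes, none of them called by limma, did (Fbln1 was at -0.66 in limma and 0.46 in edgeR). Over the whole table limma called 178 genes higher and 51 lower, against 521 and 210 with DESeq2, 403 and 183 with array weights, 76 and 29 with limma-voom and 109 and 22 at a mean of at least 100, and edgeR called 27 lower. With 1 line left out the counts ran from 122 to 227 higher and from 24 to 91 lower (91 without A1809). Of the partner genes, 12 were called higher, 7 with limma-voom, 6 without A1620 and A1693 and 7 to 12 with 1 line left out. The causes were not tested. No paired analysis was possible because the labels give the lines no replicate numbers. Depth limits Eln, Mfap2, Mfap5 and Fbn2, which had 0 to 4 reads over all KPC lines.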

Other observations

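The genes whose levels followed a member most closely over the 10 lines, once each genotype's mean had been taken out, were looked up for the 4 called members among 11781 tested genes with named symbols. Fbn1 was most like Mxd3 (Pearson r = 0.954) and Utp18 (0.951), Ltbp2 most like Mir5125 (0.935) and Ralgps2 (0.909), and Mfap5 most like Utp23 (0.944) and Tmem121 (0.936). Fbln5 was most like Sgce (0.923), which encodes a sarcoglycan, and Trmt11 (0.898). None of these 8 genes was called between the genotypes by limma, and the closest was Sgce, with a log2 fold change of 5.95 (SE 1.36, limma adjusted p = 0.0565). The points share their libraries, and values this high are the top of a search over all those genes, so they are given as a description with no p.

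Of the 18 partner genes under the filter, Itgb8 and Itga8, integrin subunits known to bind latent TGF-beta, and the proteoglycan Dcn were higher in every KPCAf/f line than in any KPC line, where 1.27% of the 15623 genes outside the filter with a read were. These 3 were named after their values were seen. Emilin3 and Mmrn1 had 0 reads in every line.

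Fibrillin and LTBP levels were far apart in KPC and closer in KPCAf/f. Per kilobase of transcript, the summed LTBP level was 458 to 19287 times the summed fibrillin level in the KPC lines, on 1 to 20 fibrillin reads a line, and 5.96 to 31.6 times in the KPCAf/f lines.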
